A study of Mus musculus with 2 samples.

Results

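The granulocyte array was 1 of the 2 one-colour Agilent microarrays of the series, and the other held monocytes. It carried Cy3-labelled cRNA made from the total RNA of granulocytes that had been sorted out of bone marrow from wild-type male mice of the strain C57BL/6, and the monocyte array shared strain, sex, genotype and tissue. The sources used here do not name the surface markers of the sort, its purity, or the age and number of the mice. All gene probes of the granulocyte array were ranked by their processed signal, the brightness of a spot after the scanner software had subtracted the background, in the scanner's own linear units, written below as units or as kU (1000 units). Of 43379 gene spots, 143 were left out because the software had marked them as outliers, which left 41123 of 41174 probes. A gene name could be given to 33078 of these probes, which stood for 19736 genes, and each gene took the level of its brightest probe. With 1 array per cell type there was no replicate of the biology and no test, so all values below describe this 1 hybridisation, and the number of arrays limits their precision.

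Granulocytes of the bone marrow are mostly neutrophils at successive stages of maturation. A maturing neutrophil packs its granules in a known sequence: azurophil granules with myeloperoxidase and serine proteases are made earliest, specific granules with lactoferrin follow, gelatinase granules with Mmp9 come later, and vesicles loaded with surface receptors are made last. The transcript of a granule protein is made mainly at the stage at which its granule forms, and mature cells carry receptors for chemoattractants, a poised oxidase and a dense actin network for crawling and phagocytosis.

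The label granulocyte was set beside 6 genes that mark these cells, and all 6 were well above background and in the brightest 5% of genes. The 6 genes were chosen with earlier results of these data known, so this is not an independent check of the label. S100a9, which forms the abundant cytosolic protein calprotectin with S100a8, read 294 kU and ranked 2 among all genes. Ltf, lactoferrin of the specific granules, read 252 kU, S100a8 read 209.8 kU, and Mmp9, the gelatinase of the late granules, read 99.2 kU. The receptors were dimmer than the contents of granules and cytosol: Csf3r, the receptor for granulocyte colony-stimulating factor, read 27.1 kU and Cxcr2, the receptor for neutrophil-attracting chemokines, read 16.1 kU. On the monocyte array 3 of the same 6 genes were in the brightest 5%, namely S100a9 at rank 2, S100a8 at rank 54 and Ltf at rank 75, whereas Csf3r ranked 2499, Mmp9 9154 and Cxcr2 10891 there.

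The array measures each gene through probes of 60 bases, and the sequences behind the brightest readings show what was ranked. The initial 30 bases of each are given 5′ to 3′ as the deposited array files list them, with the position of the whole probe in the mouse build mm8. They belong to the cytosolic S100 genes, lactoferrin, the chitinase-like lectin Chil3, the granule protein Ngp and the markers Mmp9 and Cxcr2, and to the 3 other readings among the 4 brightest genes, Lars2, Ptprz1 and Lrrc58, that are taken up after them.
S100a9, chr3:90778590-90778649, minus strand: ctgcccaaccaagtctaaagggaatggctt
S100a8, chr3:90755783-90755842, plus strand: cttgttcagagaattggacatcaatagtga
S100a6, chr3:90700165-90700224, plus strand: taacaaggatcaggaagtaaacttccagga
Ltf, chr9:110880576-110883626, plus strand: aaggcaggaaatgttgcatttttgaaggac
Ltf, chr9:110885185-110885244, plus strand: ttgcctgttccagtctaaaaccaaaaacct
Chil3, chr3:106275623-106275682, minus strand: tgaacatcttttgcttcctgtaaaaccacc
Ngp, chr9:110266929-110267477, plus strand: gacagggattgcagtcgagaggatacccaa
Mmp9, chr2:164646008-164646067, plus strand: tctggcgtgtgagtttccaaaatgaggtga
Cxcr2, chr1:74093519-74093578, plus strand: aagggtggggagttcgtgtagaagacacag
Lars2, chr9:123310696-123310755, plus strand: acgtcgctttttgatccttcgatgtcggct
Ptprz1, chr6:22951570-22951629, plus strand: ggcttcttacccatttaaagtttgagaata
Lrrc58, chr16:37802851-37802910, plus strand: atcgtgcaccgcaaatgcttctaggcggac
The span of the leading Ltf probe and of the Ngp probe is longer than 60 bases, so each crosses at least 1 intron.

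Brightness was steeply graded. Of the 19736 genes, 14642, or 74.2%, were well above background by the scanner's flag on at least 1 probe, and 5094 were not. The 100 brightest genes read between 72.8 and 306 kU, and the median gene above background read 266 units, so the 100th gene was 274 times as bright as that median. The 10 brightest genes held 5.19% of the summed signal of all genes above background, the 100 brightest held 26.5%, and the brightest 5% of genes (987 genes, from 10.1 kU upwards) held 70.4%. The middle tier, the 2928 genes between the 40th and 60th percentile of the genes above background, read between 131 and 551 units and held 1.74%. The gene just inside the brightest 5% and the gene just outside it read 10.138 and 10.136 kU, and the 100th gene and the next read 72.8 and 72.7 kU, so neither limit marks a step in the ranking.

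**Figure D1:**
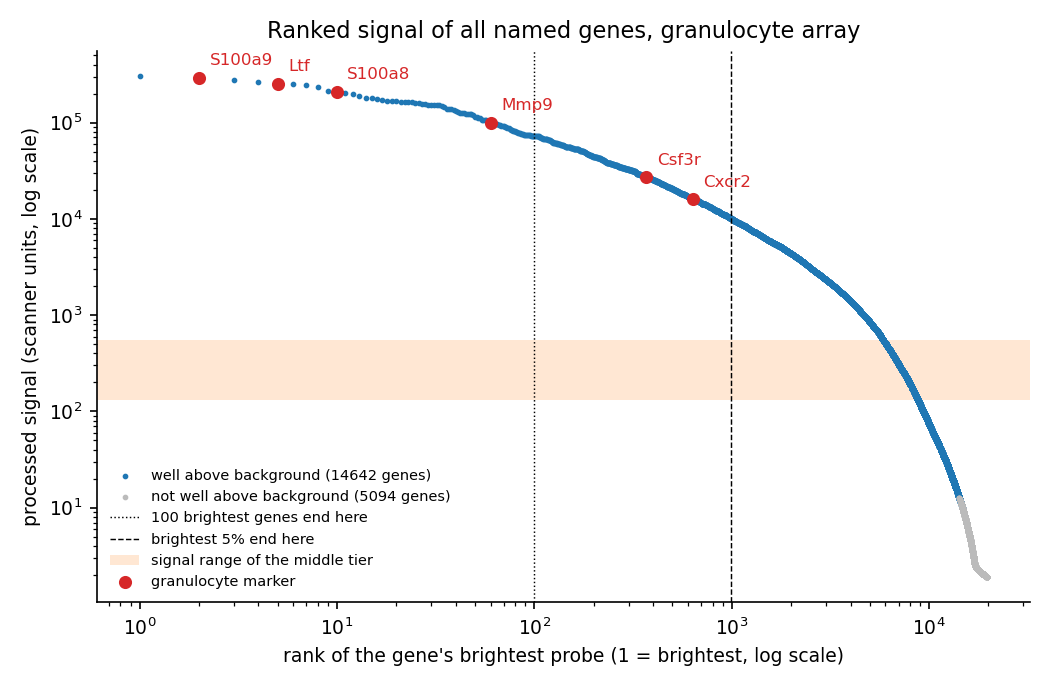
Processed signal of each named gene's brightest probe (scanner units, log scale) against its rank on the granulocyte array (log scale), with blue points for the 14642 genes well above background, grey points for the 5094 others, and red points for the 6 marker genes. All 6 markers lie to the left of the dashed line that ends the brightest 5%, and the band shows the middle tier, from 131 to 551 units.

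How far a rank can be read depends on the probe as well as on the gene. Repeat spots of 1 probe on the array agreed closely: 175 probes above background were spotted 10 times, with a median SD of 0.07 on the log2 scale. The 10 spots of the second Mmp9 probe read 97.3 ± 3.32 kU (SD, n = 10 spots of 1 array), and 8 spots for Gpi1, the isomerase of the second glycolytic step, read 158 ± 3.57 kU (SD, n = 8 spots). The scanner's own error estimate had a median of 10% over the 100 brightest genes, and within it S100a9 could hold any rank from 1 to 3 and Itgb2l any rank from 81 to 120. Probes of different sequence for 1 gene disagreed far more: over 5581 genes with at least 2 probes above background, the brightest and dimmest probe differed by a median of 5.16-fold, and in 1487 genes (26.6%) by more than 16-fold. The order below is therefore an order of probe brightness, not of transcript copies per cell, and neighbouring ranks are not distinguishable.

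Among the 100 brightest genes, 58 had a single named probe and 42 had several. In 23 of the 42 all probes were in the brightest 5%, and in 10 the lowest probe was dimmer than the median gene above background. The 2 Ltf probes read 252 and 231 kU, the 2 Mmp9 probes 99.2 and 97.3 kU, and the 2 probes for Myl6, a myosin light chain, 245 and 218 kU. These genes rank high whichever probe is taken. Gpi1 was at the other extreme, with 158 kU and 126 units, and so was Slpi, a secreted inhibitor of leukocyte elastase, with 177 kU on one probe and 9.90 units, not above background, on the other.

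Of the 4 brightest readings, 3 rested on a probe that lists a second gene or that the gene's other probes did not match. The brightest named probe, at 306 kU, is listed in the file for Lars2, a mitochondrial tRNA synthetase, and also for Rn28s1, the 28S ribosomal RNA. Ptprz1, a receptor phosphatase of glia, read 275 kU on a probe tied to a GenBank messenger record, while its 3 other probes read 20.4, 3.67 and 1.90 units and the last pair were not above background. Lrrc58, a leucine-rich repeat protein, read 263 kU on 1 probe and 696, 43.5 and 42.3 units on its 3 others. On the monocyte array these genes ranked 1, 3 and 4, the ranks they had on the granulocyte array. Without these readings the ranking begins with S100a9, Ltf, Tmsb4x and Myl6.

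**Figure D2:**
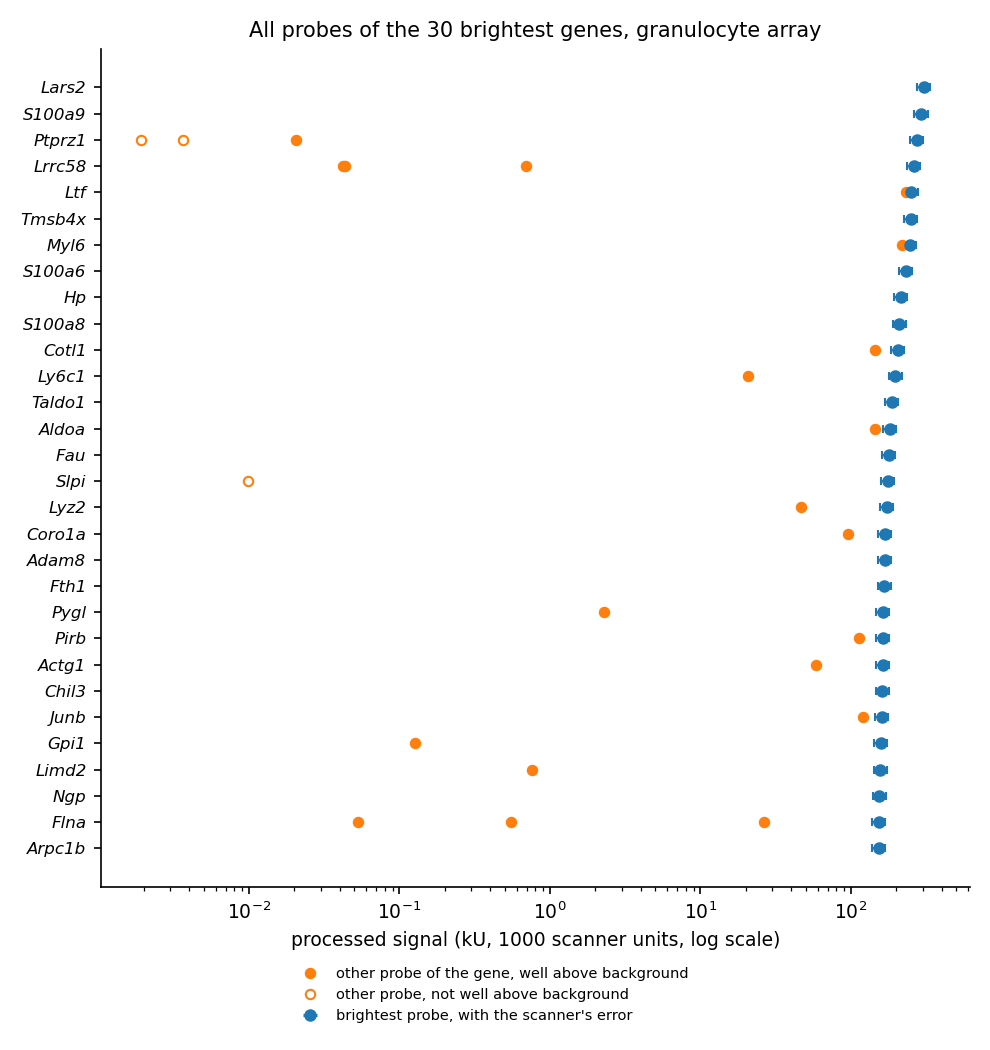
Processed signal (kU, log scale) of every probe of the 30 brightest genes of the granulocyte array, with the brightest probe in blue (bars are the scanner's error) and the others in orange, hollow where not well above background. The other probes of Ptprz1, Lrrc58, Slpi, Gpi1, Limd2 and Flna lie far to the left, while those of Ltf, Myl6, Cotl1, Aldoa and Junb lie beside the brightest.

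The 30 brightest genes, apart from those readings, fell into a few groups. Contents and products of neutrophils made up the largest of them, with S100a9, Ltf, S100a8, Hp (haptoglobin, a haemoglobin-binding protein stored in granules, 215 kU), Slpi, Lyz2 (lysozyme, 173 kU), Chil3 (162 kU), Ngp (154 kU) and Adam8 (a membrane metalloproteinase, 168 kU). Genes of the actin network were as bright: Tmsb4x, which binds actin monomers, read 251 kU, Myl6 245 kU, Cotl1, a coactosin, 204 kU, Coro1a, a coronin of leukocytes, 169 kU, Actg1, cytoplasmic actin, 162 kU, Flna, a filament cross-linker, 154 kU, and Arpc1b, a subunit of the Arp2/3 complex, 153 kU. Sugar metabolism was present with Taldo1 of the pentose phosphate pathway (188 kU), Aldoa of glycolysis (182 kU), Gpi1 and Pygl, the glycogen phosphorylase that releases stored glucose (164 kU). The remaining members were S100a6 (233 kU), Ly6c1 (198 kU, named through an older symbol), Fau, a ribosomal protein fusion (178 kU), Fth1, ferritin heavy chain (167 kU), Pirb, an inhibitory receptor for MHC class I (164 kU), Junb, an AP-1 factor (161 kU), and Limd2 (157 kU).

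Genes were counted by granule list, against all genes. Of all genes, 74.2% were well above background, 5.0% were in the brightest 5% and 14.8% in the middle tier. The lists also hold genes of other kinds, such as Serpinb1a, a cytosolic inhibitor, B4galt6, a glycosyltransferase, and Elf3, an ETS factor. Of 22 specific granule genes 20 were above background, 16 were in the brightest 5% and 1 was in the middle tier, and their median percentile was 99.1. Of 16 genes of gelatinase granules and secretory vesicles all 16 were above background and 8 were in the brightest 5%, with a median percentile of 95.8. Of 17 azurophil granule genes 16 were above background, 6 were in the brightest 5% and 4 in the middle tier, with a median percentile of 78.8. The earliest granule class thus had the lowest median of the 3, and the list held both some of the brightest and some middling genes.

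The specific granule list had 9 of its 22 genes among the 100 brightest and 6 outside the brightest 5%. After Ltf, Hp, Slpi and Chil3 came Ngp, Anxa1, an annexin that restrains neutrophil migration (150.5 kU), Mmp8, the neutrophil collagenase (135 kU), and Camp, the cathelicidin antimicrobial peptide (129 kU). Lcn2, which sequesters bacterial siderophores, read 66.0 kU, Cd177, a surface glycoprotein, 37.7 kU, and Ceacam10 12 kU. Dimmer members were Fcnb, a ficolin (1.91 kU), Olfm4, which marks a subset of neutrophils (1.77 kU), and Orm1, an acute-phase protein (940 units). B4galt6, a glycosyltransferase, read 333 units in the middle tier, and Arg1, arginase, and Elf3, an epithelial ETS factor, were not well above background.

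The azurophil genes split by function. Lyz2 and Lyz1, the lysozymes, read 173 and 150.4 kU, and the Lyz1 probe lists both genes, while Srgn, the proteoglycan core that packs granule proteins, read 79.2 kU and Serpinb1a, a cytosolic inhibitor of serine proteases, 61.7 kU. Mpo, myeloperoxidase, read 10.9 kU at rank 929. The serine proteases were dimmer: Ctsg, cathepsin G, read 3.14 kU, Prss57 726 units, Elane, neutrophil elastase, 387 units and Prtn3, proteinase 3, 222 units. Ctsc, the dipeptidase that activates these proteases, read 406 units, and Bpi, a bactericidal protein, was not well above background. Elane, Prtn3, Ctsc and Nkg7 made up the 4 genes of this list in the middle tier. On the monocyte array Mpo ranked 23, Ctsg 164, Elane 1302 and Prtn3 2366, each nearer the top than on the granulocyte array, where they ranked 929, 2487, 6562 and 7717. No test of that difference is possible with 1 array each.

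In the gelatinase and secretory list, Adam8 was followed by Retnlg, a resistin-like secreted protein (103 kU), Mmp9, Wfdc21 (77.9 kU) and Itgb2, the shared chain of the leukocyte integrins (52.9 kU). Fpr1 and Fpr2, receptors for bacterial formyl peptides, read 47.4 and 44.2 kU. Slc11a1, a phagosomal metal transporter, read 8.79 kU, Mmp25, a membrane metalloproteinase, 6.18 kU and Cd14, the endotoxin coreceptor, 3.91 kU. At the lower end were Anpep, an aminopeptidase, at 41.4 units, and Alpl, alkaline phosphatase of secretory vesicles, at 11.2 units, both above background by the flag. Olfactory receptor genes called above background had a median of 32.3 units and a 95th percentile of 188 units. Alpl read under that median, and Anpep under that 95th percentile.

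The surface and chemotaxis genes were all called above background, 35 of 35 against 74.2% of all genes. Of these, 26 were in the brightest 5% and 3 in the middle tier. Pirb was the brightest, then Mcemp1 (126 kU), Fcer1g, the signalling chain of Fc receptors (68.1 kU), and Cd300lf (57.8 kU). Selplg, the ligand of P-selectin, read 55.7 kU, and Ltb4r1, the leukotriene B4 receptor, 43.2 kU. Chemokine receptors spanned a wide range, with Cxcr2 at 16.1 kU, Cxcr4, the receptor that retains cells in the marrow, at 6.05 kU, Ccr1 at 167 units and Cxcr1 at 66.3 units. Cxcr2 also shows the limit set by the probe, since its 2 probes read 16.1 and 3.91 kU. C5ar1, the complement C5a receptor, at 654 units, and Ptafr, the receptor for platelet-activating factor, at 138 units, were far dimmer than the formyl peptide receptors. Ccr1, Ptafr and Cxcr1 read under 188 units, the 95th percentile of the olfactory receptor genes called above background.

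All 8 genes of the NADPH oxidase, the enzyme that makes superoxide in the phagosome, were in the brightest 5%. The GTPase Rac2 was the brightest at 95.9 kU, followed by the cytosolic subunit Ncf4 at 74.2 kU. The membrane subunits Cyba and Cybb read 29.2 and 23.7 kU, the cytosolic Ncf1 16.2 kU, and the GTPases Rac1 and Rap1a 13.1 and 12.3 kU. The 8 readings thus spanned 12.3 to 95.9 kU, while each granule class reached down below 100 units.

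**Figure D3:**
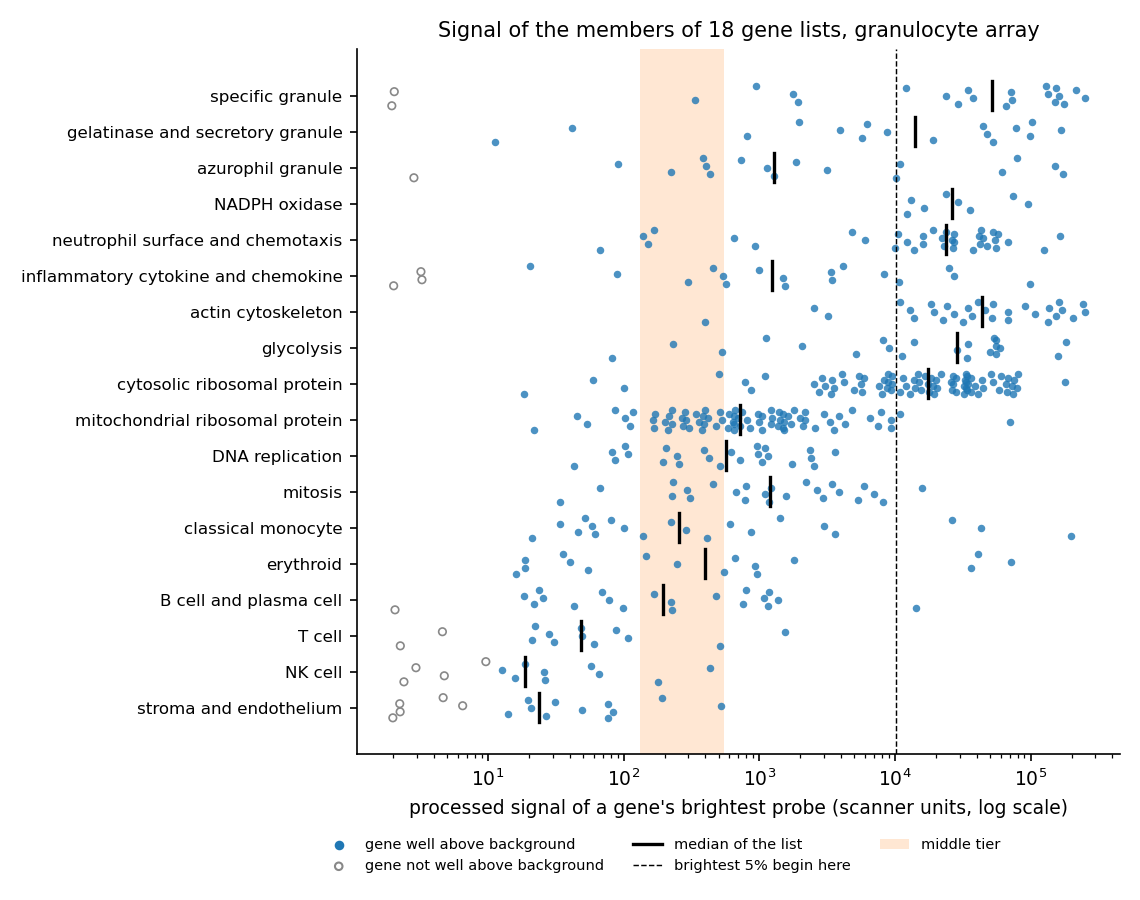
Processed signal of each member's brightest probe (scanner units, log scale) for 18 gene lists of the granulocyte array, with filled points for genes well above background, open points for the others, black bars for list medians, a dashed line where the brightest 5% begin and a band for the middle tier. The specific granule, gelatinase, NADPH oxidase, surface, actin, glycolysis and cytosolic ribosomal protein lists have medians to the right of the dashed line. The T cell, NK cell and stroma lists have medians under 50 units.

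Secreted mediators were mostly in between. Of 20 inflammatory cytokines and chemokines 17 were above background, 4 were in the brightest 5% and 3 in the middle tier. Those 4 were the chemokine Ccl6 (98.9 kU), Il1b, interleukin-1 beta (27.2 kU), Osm, oncostatin M (25.1 kU), and Tnfsf14 (10.7 kU). Il6, Il1a and Cxcl1 were not well above background, and Il10 read 20.5 units. Of 15 prostaglandin and leukotriene genes 14 were above background and 3 were in the brightest 5%. These were Alox5ap, the protein that presents arachidonic acid to 5-lipoxygenase, at 125 kU, Alox5 itself at 49.9 kU and Lta4h, which makes leukotriene B4, at 14.0 kU. Pla2g4a, the phospholipase that releases arachidonic acid, read 1.01 kU, and Ltc4s, which makes leukotriene C4, 18.9 units.

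The peptidylarginine deiminases, which convert arginines of histones and other proteins to citrulline, differed by member. Padi4, the form of granulocytes, read 73.4 kU, Padi3 263 units, and Padi1 197 units, and Padi2 was the dimmest of them. Among chromatin proteins of the same list, Hmgb2 read 56.2 kU and Lbr, the lamin B receptor that shapes the lobed nucleus, 27.6 kU. The innate sensing list had 17 of 17 genes above background and 4 in the brightest 5%: Tyrobp, an adaptor of activating receptors (123 kU), the lipopeptide receptor Tlr2 (16 kU), the adaptor Myd88 (13.7 kU) and Nod1 (12.6 kU). Nlrp3, the inflammasome sensor, read 177 units in the middle tier.

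Transcription factors of the granulocyte line were called above background in 19 of 19 cases, against 74.2% of all genes. The brightest 5%, which holds 5.0% of all genes, held 8 of them. After Junb came Klf2 (94.3 kU), Cebpd (86.8 kU) and Mxd1, a repressor that opposes Myc (76.9 kU), then Cebpb, Nfe2, Bcl6 and Stat3. The other 11 were lower, among them Gfi1, a repressor that specifies granulocytes, at 1.17 kU, Spi1, known as PU.1, at 994 units, Cebpa at 722 units and Runx1 at 564 units. None of the 19 was in the middle tier, and the dimmest were Foxo3, Lef1 and Rara, at 119, 119 and 108 units. Each of these read under 188 units, the 95th percentile of the olfactory receptor genes called above background. Of 19 immediate early genes 12 were in the brightest 5%, among them Btg1 (97.3 kU), Ier5 (63.1 kU), Dusp1 (54.1 kU) and Fos (49.2 kU), while Jun read 2.14 kU and Myc 87.8 units.

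Housekeeping families differed sharply from one another. Of 30 actin cytoskeleton genes 27 were in the brightest 5%, 10 of them among the 100 brightest, with a median percentile of 99.0, and the list held 4.57% of the summed signal. Of 21 glycolysis genes 13 were in the brightest 5%, including Pgk1 (59.4 kU) and Gapdh (55.9 kU), while Pfkm, the muscle phosphofructokinase, read 230 units. All 82 cytosolic ribosomal protein genes were above background, and 52 were in the brightest 5%. They were led by Fau, Rpl37a (81.0 kU), Rplp0 (78.8 kU) and Rps27 (75.1 kU), and the low end was formed by Rpl39l and Rpl3l, paralogs of restricted expression, at 18.5 and 59.6 units. Rplp0 again depended on the probe, since its repeated probe read 4.21 ± 0.15 kU (SD, n = 10 spots).

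The mitochondrial counterpart of that family was dimmer, with a median above the middle tier and below the brightest 5%. Of 77 mitochondrial ribosomal protein genes all were above background, 2 were in the brightest 5% and 23 in the middle tier, with a median of 722 units. Mrpl33 stood alone at 69.9 kU, and Mrpl21, Mrpl52 and Mrps10 read 270, 273 and 281 units near the median gene. The respiratory chain and ATP synthase list of 77 genes, which share the organelle, had 27 in the brightest 5% and 2 in the middle tier, led by Cox6a1 (72.7 kU). Of 39 proteasome subunits 6 were in the brightest 5%, and of 28 translation factors 9.

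Genes of dividing cells and of ribosome assembly were all called above background, against 74.2% of all genes. At most 1 gene of a list was in the brightest 5%, which holds 5.0% of all genes. All 24 DNA replication genes were above background, 0 were in the brightest 5% and 7 in the middle tier. Their median was 565 units and that of the mitosis genes 1198 units, both above the 266 units of the median gene above background. Pcna, the sliding clamp of DNA polymerase, read 3.58 kU, Mcm6 of the replicative helicase 2.52 kU, Mcm2 254 units and Rpa1, a subunit of the single-strand binding protein, 249 units. All 24 mitosis genes were above background and 1 was in the brightest 5%, Cks2, a partner of cyclin-dependent kinases, at 15.7 kU, ahead of Mki67, a marker of cycling cells, at 8.17 kU and Birc5 at 6.94 kU. Of 21 ribosome biogenesis genes all were above background and 0 were in the brightest 5%, with a median of 255 units, close to that of all genes above background. The brightest were Polr1a, the large subunit of RNA polymerase I (9.31 kU), and Ncl, nucleolin (5.40 kU).

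Histones gave 15 of 48 genes in the brightest 5%, and 6 among the 100 brightest. The replication-independent genes H3f3b and H3f3a read 144 and 92.5 kU, and H2aj 83.2 kU. H3c14 and H2ac10, members of the clustered family, read 104 and 74.9 kU on probes that list several near-identical genes, so these readings cannot be given to 1 gene. MHC class I was bright as well, with H2-D1 at 149 kU on a probe listing 2 genes, H2-T23 at 84.2 kU, H2-Q7 at 76.0 kU and B2m, the shared light chain, at 36.1 kU. Tap1, the peptide transporter, read 1.38 kU and H2-M3 415 units.

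Genes of other cells that marrow holds were counted in the same way, and in a bulk sample few cells of a type and little RNA per cell cannot be told apart. Of 20 genes of classical monocytes all 20 were above background, 3 were in the brightest 5% (Ly6c1, Lgals3 and Psap) and the median was 254 units. The more restricted Csf1r, the receptor for colony-stimulating factor 1, read 3.61 kU, Irf8 414 units, F13a1 286 units, Ccr2 51.7 units and Cx3cr1 21.1 units. Of 16 erythroid genes all were above background and 3 were in the brightest 5%, all globins: Hbb-bt (71.9 kU), Hba-a1 (41.0 kU) and Hba-a2 (36.6 kU). The other erythroid genes were much dimmer, led by Alas2, which starts haem synthesis, at 1.81 kU. Their part in the ranking was not tested.

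Among lymphoid lists, B and plasma cells had 19 of 20 genes above background and 1 in the brightest 5%, Ighm at 14.2 kU, with Cd79b at 1.15 kU and Pax5 at 23.9 units. Of 13 T cell genes 11 were above background and 0 were bright, led by Cd3d at 1.53 kU. Of 13 NK cell genes 9 were above background, or 69.2% against 74.2% of all genes, and 0 were bright. Ncr1, Prf1, Eomes and Gzmb were not well above background. Of 11 eosinophil genes 10 were above background with 0 in the brightest 5%, and the ribonuclease Ear1 read 4.27 kU, the granule protein Prg2 2.67 kU and the peroxidase Epx 199 units. Of 12 basophil and mast cell genes 10 were above background and 1 was in the brightest 5%, Hdc, the histamine-forming enzyme, at 111 kU. The proteases of these cells were far dimmer, with Prss34 at 820 units, Mcpt8 at 125 units and Cpa3 at 73.7 units.

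For macrophages 13 of 15 genes were above background and 1 was in the brightest 5%, the iron exporter Slc40a1 at 21.1 kU, while Adgre1, known as F4/80, read 2.41 kU and C1qa 55.8 units. Platelet genes were detected in 14 of 14 cases with 0 in the brightest 5%. They were led by Itgb3 (8.93 kU), Thbs1 (7.95 kU) and Clec1b (1.45 kU), and Pf4, platelet factor 4, read 676 units. Dendritic cell genes were called above background in 16 of 18 cases (88.9%), stem and progenitor genes in 12 of 16 (75%). For stroma and endothelium it was 11 of 16 (68.8%). The share of all genes was 74.2%, so the stem and stroma counts were near it. All of these genes were outside the brightest 5%. The brightest genes of the dendritic cell, stem and stroma lists were Bst2 (1.51 kU), Ly6a (5.58 kU) and Col1a1, a collagen of bone (518 units). The part of these cells in the ranking was not tested.

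Families of sensory genes were called above background at lower shares than the 74.2% of all genes. Of 898 olfactory receptor genes, which serve the nose, 467 were called well above background, or 52.0%, and of 128 vomeronasal receptor genes 44 were, or 34.4%. Among the 467, the median read 32.3 units, the 95th percentile 188 units and the highest, Olfr571, 3056 units. No olfactory receptor was in the brightest 5%, and 38 were in the middle tier. Of all 14642 genes called above background, 6571, or 44.9%, read at or under that 95th percentile, and 8071 genes read above it. Zinc finger genes, a large family of transcription factors, had 277 of 348 members above background, 2 in the brightest 5% and 73 in the middle tier, with Zfp60 at 266 units next to the median gene.

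Detection moved with the base composition of the probe. Of probes with at most 30% G and C, 26.4% were well above background, and the share was 72.0% for those over 40 and up to 45% and 95.6% for those over 60%. Olfactory receptor probes moved in the same way, from 12.8% of 172 probes over 30 and up to 35% G and C to 89.3% of 28 probes over 45 and up to 50%. Across all 41123 probes the Spearman correlation of the G and C share with the log2 signal was 0.32 and Pearson's 0.29, and across the 26279 probes above background the values were 0.03 and 0.04. These are descriptions across probes of 1 array, and probes are not replicates. The median probe of the 100 brightest genes had 45% G and C, that of the middle tier 45% and that of genes not well above background 40%.

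**Figure D4:**
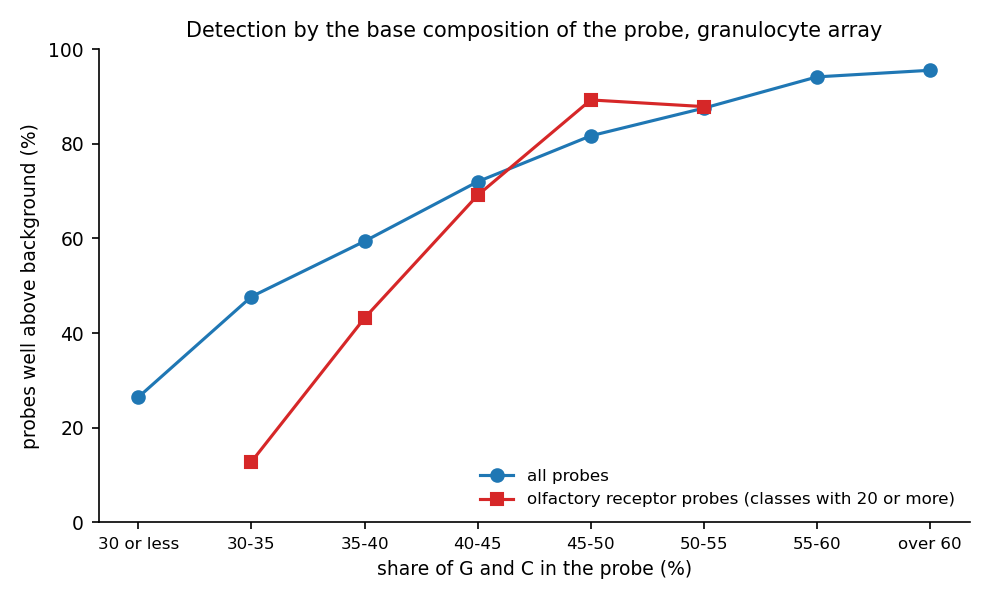
Share of probes of the granulocyte array that were well above background (%), by the share of G and C in the probe, for all probes and for olfactory receptor probes in classes with at least 20 of them. The share rises from 26.4% to 95.6% for all probes and from 12.8% to over 87% for olfactory receptor probes.

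The brightest genes included groups of neighbours. Of the 100 brightest, 99 could be placed in the RefSeq gene order, and 15 of them stood in 6 groups with at most 2 genes between members. The same count was not made for other genes, so it does not show whether bright genes are grouped more often. S100a6, S100a8 and S100a9 formed a group on chromosome 3, Chil3 and Chil4 another there, Lyz1 and Lyz2 one on chromosome 10, and H2-D1, H2-Q2, H2-Q7 and H2-Q10 one on chromosome 17. Probes for H2-D1, H2-Q10, Lyz1 and Chil4 list more than 1 gene, so a shared reading within these groups cannot be told apart from separate transcripts. The other groups were Cd52 with Sh3bgrl3 and Plbd1 with H2aj.

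Promoters were compared through the RefSeq sequences of GRCm38.p6, which span 250 bases before to 50 bases after a start. For the 100 brightest genes 88 were matched, with 103 promoters, and for all ranked genes 15581, with 19247 promoters. The letters TATAAA on the gene's strand between 40 and 20 bases before the start were present in 2.2% of all promoters, in 9.7% of those of the 100 brightest genes, in 2.7% of those of the brightest 5%, in 1.2% of those of the middle tier and in 4.05% of those of genes not well above background. The 10 bright genes that carry them include S100a8, Anxa1, Padi4, Chil4, Btg1, 3 MHC class I genes and 2 histones. Probes for Chil4, H2-D1 and H2-Q10 list more than 1 gene, so their brightness cannot be given to 1 gene. The 60 bases before the start of 4 of the 10 genes are shown with TATAAA in capitals. A match is a description of letters and not a binding site.
S100a8, chr3:90669011-90669070, plus strand: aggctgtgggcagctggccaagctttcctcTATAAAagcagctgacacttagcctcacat
Anxa1, chr19:20390672-20390731, minus strand: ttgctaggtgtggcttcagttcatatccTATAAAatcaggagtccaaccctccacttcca
Padi4, chr4:140774204-140774263, minus strand: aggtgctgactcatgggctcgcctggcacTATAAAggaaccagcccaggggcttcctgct
Chil4, chr3:106219480-106219539, minus strand: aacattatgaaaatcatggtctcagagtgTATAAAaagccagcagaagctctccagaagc

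The letters GAGGAA, the core of the sites that the myeloid factor PU.1 is known to bind, were searched on both strands in the 250 bases before the start and were present in 22.6% of all promoters. The share was 21.4% for the 100 brightest genes, 24.3% for the brightest 5% and 22.9% for the middle tier, so it did not follow brightness. Among granulocyte lists, 22 of 30 promoters of surface and chemotaxis genes held it (73.3%), 10 of 19 of specific granule genes (52.6%) and 6 of 14 of azurophil granule genes (42.9%). Higher shares than that of all promoters were also found for 6 of 7 promoters of stefins and cystatins (85.7%), 64.3% of prostaglandin and leukotriene genes, 38.5% of gelatinase and secretory granule genes and 30.8% of S100 and annexin genes. Lower shares than that of all promoters were found in 5 lists, with 21.1% for cytokines and chemokines, 20% for innate sensing genes, 13.6% for transcription factors, 11.1% for the list of chromatin proteins and deiminases, and 0 of 3 promoters for the NADPH oxidase. Lists of other blood cells were also high in places, with 69.2% for T cell genes and 55.6% for macrophage genes, against 25.0% for cytosolic ribosomal protein genes. These lists are small and were not compared by a test. Pieces of 30 bases with the match in capitals are shown for granule genes and receptors described above, and TTCCTC is the same motif read on the other strand.
Csf3r, chr4:126024561-126024590, plus strand: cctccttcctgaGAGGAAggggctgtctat
Cxcr2, chr1:74153901-74153930, plus strand: acagcctagccaTTCCTCtataggacacct
Itgam, chr7:128062544-128062573, plus strand: tgttttctcccgGAGGAAggctacagaggg
Elane, chr10:79886215-79886244, plus strand: tcgtgtcccaggGAGGAAgtagggctgtgg
Prtn3, chr10:79879560-79879589, plus strand: ccaaactggaagGAGGAAgtgggacccaca
Ltf, chr9:111019123-111019152, plus strand: tggagtccctgtTTCCTCcttctgggctcc
Mmp8, chr9:7558198-7558227, plus strand: aactagcacaacTTCCTCattacacacaga
Over the surface and chemotaxis, specific granule and azurophil granule lists, genes with these letters ran from Ltf at 252 kU to Bpi, which was not well above background at 2.84 units.

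The ranking of the granulocyte array was set beside that of the monocyte array only to see which bright genes are shared. Of the 100 brightest granulocyte genes 48 were also among the 100 brightest monocyte genes, and 90 were in the brightest 5% there. The 10 that were not are Adam8, Mmp8, Hdc, Retnlg, Mmp9, Lrg1, Wfdc21, Mxd1, Padi4 and Itgb2l. Their ranks on the monocyte array ran from 1139 for Wfdc21 to 9154 for Mmp9, against 19 to 100 on the granulocyte array. Of these, 6 are granule or secretory vesicle genes of the lists above (Adam8, Mmp8, Retnlg, Mmp9, Wfdc21 and Itgb2l). Among all 100 brightest genes, 9 are on the specific granule list, 4 on the gelatinase and secretory list and 3 on the azurophil list. These lists were chosen with earlier results of these data known. Over all genes the levels on both arrays had a Spearman correlation of 0.92, which is a description across genes that share probes and slide.

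**Figure D5:**
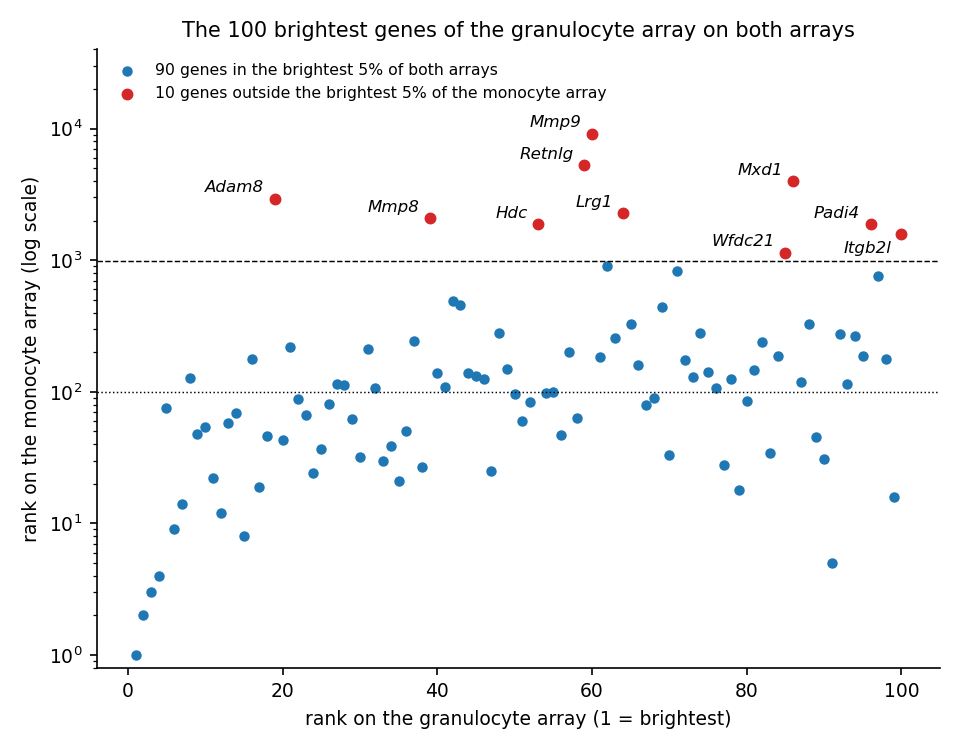
Rank of the 100 brightest genes of the granulocyte array on that array and, on a log scale, on the monocyte array, with the dotted line at rank 100 and the dashed line at the end of the brightest 5%. The 10 named genes lie above the dashed line, from Wfdc21 at 1139 to Mmp9 at 9154, and the 90 others lie below it.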

How the data were processed

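Per the file headers, each array was scanned and read by Agilent Feature Extraction 10.5.1.1. The authors deposited its output, a processed intensity per spot from which background and spatial trends had been taken out, beside flags for outliers, saturation and detection. Their value table was deposited on a log2 scale: it equalled the log2 processed intensity plus 1 constant (-0.24 for granulocytes) for 100% of 40878 single-spot probes within 0.01, with a column median of 4.80. The rule behind the constant is not given.

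Control and outlier spots were left out, and 0 gene spots were saturated. Replicate spots of a probe were averaged as log2 values. Names came from RefSeq accessions of GRCm38.p6 (24473 probes), a current symbol (6225) or 1 older symbol (2380). The other 8045 probes stayed unnamed, and 410 listed several genes, of which the leading one gave the name. Ranks, counts and correlations were computed with Python 3.11.15, pandas 2.3.3 and numpy 2.4.6, plots with matplotlib 3.10.9 and the normexp alternative with limma 3.58.1. The ranking code was checked on simulated data. Genes are named by rule: the 30 brightest, the markers, and the brightest, near-median and dimmest members of each list. Other genes named here were chosen after their values were seen. The marker genes and lists were chosen with earlier results of these data known, and the histone list was widened to current symbols after the levels were seen. Lists share members. No test was made. Alternatives were other signals and background corrections, the median of a gene's probes, other flags and other widths of the bright tier. Probe positions come from the array files (mm8) and promoter positions from RefSeq (GRCm38.p6).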

Additional observations from a re-analysis of the deposited data

Results flagged for a closer look

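The ranking of genes leaves out probes that could not be named, and these carried signal. Of the 8045 unnamed probes of the granulocyte array, 3590 were well above background. Among the 100 brightest probes 7 had no gene name in the tables used here. The brightest probe of all, at 306 kU (1 kU is 1000 scanner units), carries the file's name Rn18s, that of the 18S ribosomal RNA, and ranked above the S100a9 probe. The others are listed in the file as NAP111629-1 (rank 41 among probes), NAP103812-1 (49), NAP114294-1 (58), BC115496 (59), D50494 (68) and LOC670046 (100). No genome of the build of the files was used, so which transcripts these probes detect was not analysed here.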

How the results depend on the processing

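The 100 brightest genes kept 94 members with background-subtracted, mean or normexp signals, 100 with the authors' values or with outlier spots kept, 93 without probes that list several genes, and 76 with the median of a gene's probes. The last choice raised their share of the summed signal to 33.1% and moved Ptprz1 to rank 13997 and Lrrc58 to 6699. The share of genes above background was 87.2% with the positive-and-significant flag and 63.6% when most of a gene's probes had to pass. The correlation of base composition with signal was 0.028 over probes above background only. The count of bright genes in the lists was 308 for the brightest 5%, and 116 for the brightest 1%, which is smaller by construction. Of 490 counts for single lists 435 stayed within 1.5 times, and of the 55 others 28 came with the brightest 1% and 13 with the brightest 10%. The genes shared with the monocyte array's 100 brightest numbered 46 to 56, an alternative chosen after seeing the data, as was the restriction to probes above background. No paired analysis was possible because each group has 1 array. Signal over background limits the low end: olfactory receptor genes called above background reach 188 units at their 95th percentile.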
